A study of Mus musculus with 6 samples.

Results

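The proteasome genes were examined on 6 microarrays of LPS-stimulated BV2 cells, an immortalized mouse microglial line. They were chosen by name: every array probe whose accession belongs to a RefSeq mouse gene with a symbol beginning Psma to Psmg followed by a number, or to Pomp. Of the 23462 genes that the arrays measured by accession, 48 were proteasome genes, measured by 73 probes. Psme2, a partner of Psme1, had no probe by this rule. The members were the 8 genes of the alpha rings and 8 of the beta rings of the 20S core, the 3 immunoproteasome subunits (Psmb8, Psmb9 and Psmb10), 6 ATPases and 11 other subunits of the 19S cap, 4 regulators, and 8 assembly factors.

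The 3 control arrays held RNA of BV2 cells without PGC-1α overexpression, and the 3 others held RNA of BV2 cells labelled PGC-1α overexpression. LPS, a component of bacterial membranes that triggers inflammatory signalling in microglia, was given to both groups. According to the study's methods, the PGC-1α coding sequence was carried by a lentiviral vector with a ubiquitin promoter, control cells received a negative-control lentivirus, and overexpressing cells were selected with puromycin. Both groups were of the same line. Whether the control cells on these arrays had received that lentivirus or puromycin is not stated in the labels. The labels do not say whether replicates came from separate cultures, and the p-values then measure only the spread between these samples. The question addressed is which transcripts differ when the coactivator PGC-1α is overexpressed in inflamed microglia.

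The proteasome is the protease that degrades most ubiquitin-tagged proteins of the cell. Its 20S core is a barrel of stacked rings. The outer alpha rings gate the entrance, and the inner beta rings carry the cutting sites. The 19S cap recognises ubiquitin chains, removes them and unfolds the substrate with a ring of ATPases. In immune cells, and in other cells after interferon, Psmb5, Psmb6 and Psmb7 are exchanged for Psmb8, Psmb9 and Psmb10 during assembly. The resulting immunoproteasome cuts peptides suited to MHC class I presentation, and microglia can induce it when activated.

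Each array held 59305 spots other than controls, of which 41122 to 44966 were well above background on control arrays and 41405 to 45165 on overexpression arrays. Overexpression arrays were the dimmer ones, with a 75th percentile of 856 to 1268 intensity units against 1617 to 1893 in the control group. Replicates 1 and 2 of both groups lay on slide 1 and replicate 3 of both on slide 2. Of the microglial and macrophage markers, 9 of 10 were well above background on all 6 arrays and Cx3cr1 was on none. Their summed level, in multiples of the 75th percentile, was 90.0 to 94.0 on control and 129 to 151 on overexpression arrays. Of the 8 astrocyte and neuron markers, 6 were tested and 5 of these were called higher. The summed neuron level, nearly all of it Snap25, was 22.0 to 27.8 against 35.2 to 48.5, while that of the astrocyte markers was 0.245 to 0.291 against 0.421 to 0.537. Snap25 changed by 0.71 on the log2 scale, and by 0.08 after quantile normalization (adjusted p = 0.58). Of the 9 microglial markers tested, 5 were called higher, beside 36.9% of all genes. After quantile normalization 0 were higher and 1 lower. Of the 6 astrocyte and neuron markers, 4 were then still called higher, beside 23.1% of all genes. Their log2 changes were 0.84 (Rbfox3), 0.59 (Aldh1l1), 0.86 (Stmn2) and 0.85 (Aqp4), and the first 3 were dim. All genes tested in the same steps of 0.5 in log2 level had medians of 0.49, 0.38, 0.32 and -0.03. Syt1, Cd3g and Ms4a1, markers of neurons, T cells and B cells, were well above background on no array. The labels name only BV2 cells, so markers of other cell types are given as transcript levels and not as amounts of such cells. The part of these marker differences in the results was not tested, and bulk RNA does not show which cells carried a transcript.

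The PGC-1α transcript, Ppargc1a, was read by 2 probes close to background. The first gave log2 levels of -6.21, -6.37 and -7.71 on control arrays and -5.70, -5.28 and -5.90 on overexpression arrays, 1.14 higher in mean. The second gave -6.84, -6.33 and -7.10 against -7.00, -6.11 and -6.40. The groups did not overlap for the first probe and overlapped for the second. Each fell short of clear signal over background on at least 1 array of both groups, so neither was tested, and where they lie relative to the vector's insert is not known here.

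Of the 48 proteasome genes, 43 were tested, each by its brightest tested probe. Every one of those 43 probes was well above background on each array with a value. A level is given as log2 intensity relative to the 75th percentile of its array, and a change as the mean level on overexpression arrays minus that on control arrays, with the standard error of the limma fit. Under this scaling 27 of the 43 were called higher at an adjusted p under 0.05 and 0 were called lower, by limma with 0 lower also at an unadjusted p under 0.05. Among all 17062 genes tested, 36.9% were called higher and 19.6% lower. The median change of the 43 was 0.44, from -0.24 (Psmd7) to 0.74 (Psmd9), and that of all genes 0.23, a difference of 0.21. Of the 35 members with values on all 6 arrays, 25 had every overexpression array above every control array, and 1 (Psmd7) had every one below. Over the 16296 such genes these shares were 42.6% and 22.9%. The count of 27 fell to 17 of 43 without control replicate 1 and 17 of 43 without control replicate 2. It fell to 18 of 42 without control replicate 3 and 15 of 40 without overexpression replicate 1. In these settings the share of all genes called higher fell to between 27.1% and 30.6%. The count was 20 of 41 without overexpression replicate 2, beside 30.7% of all genes. Without overexpression replicate 3 it was 27 of 41, beside 38.3% of all genes. With the slide, which both groups share, as a block, 30 of 43 were called higher beside 42.4% of all genes, the gains being Psme1, Psmd3 and Psmc3 (adjusted p = 0.048, 0.049 and 0.036).

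**Figure D1:**
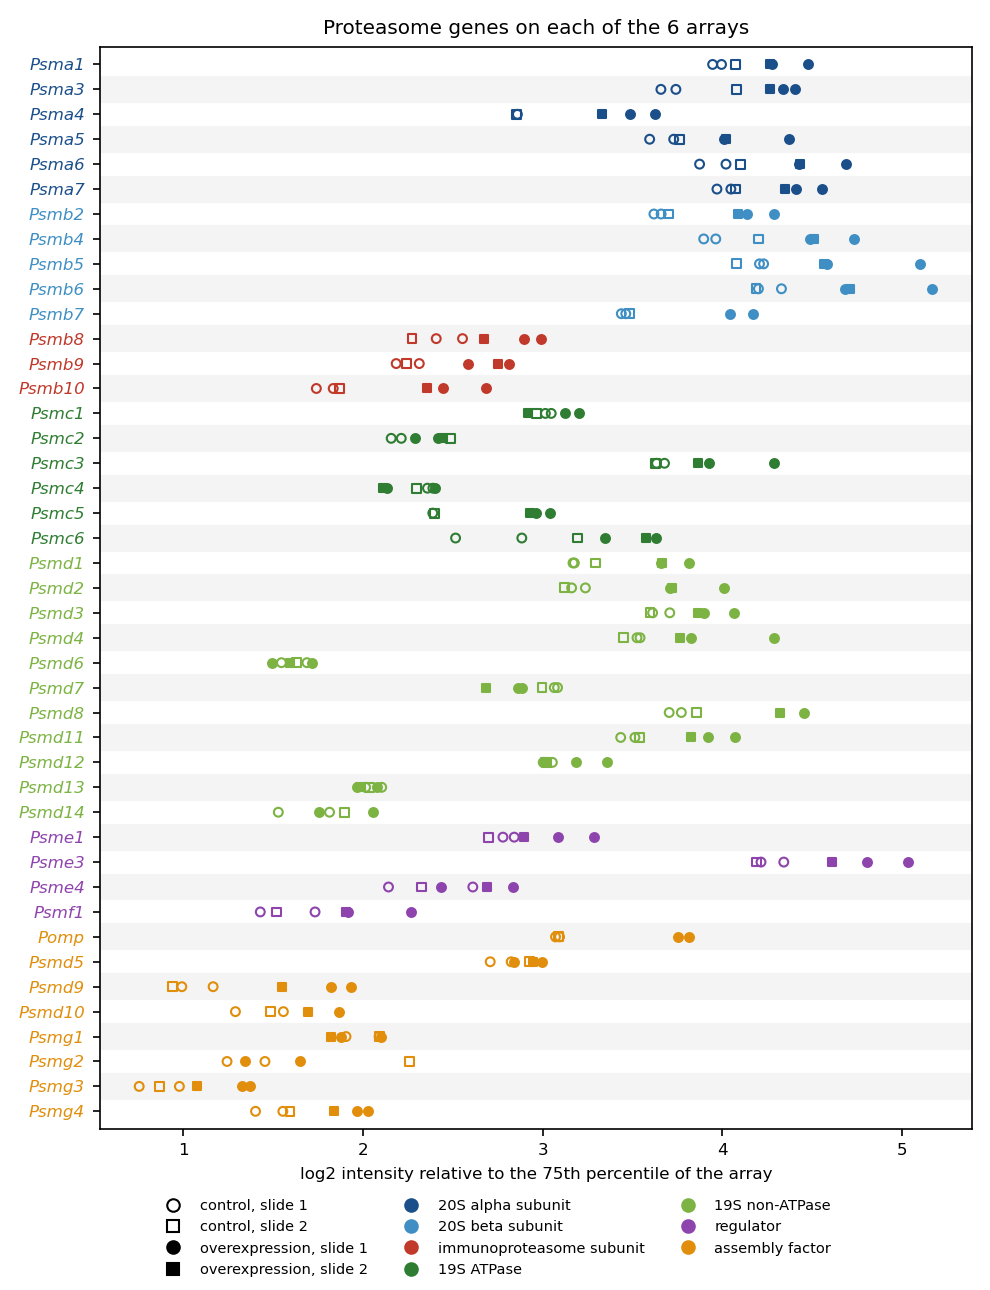
Level of each tested proteasome gene on each of the 6 arrays (horizontal axis, log2 intensity relative to the 75th percentile of the array), grouped by role in colour. Open symbols are control and filled symbols overexpression arrays, and squares mark slide 2. The filled symbols of the 20S core lie to the right of the open ones for every gene shown, whereas those of Psmd7 lie to the left.

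The rise depended on how the arrays were scaled. After quantile normalization, which gives every array the same distribution of values, 2 of the 43 members were called higher (Psmd9 and Psmb10) and 5 lower (Psmd7, Psmc4, Psmc1, Psmg1 and Psmd13), against 23.1% and 22.3% of all genes. Their median change was then -0.05, which was 0.07 below that of all genes, and 28 of 43 were negative. The log2 values that the authors had normalized gave 2 higher and 4 lower of 46, beside 21.4% and 21% of all genes. Both genes called higher after quantile normalization had been called higher under the first scaling, and none of the 27 was called lower after it.

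Above a level of 2 the members' median changes were close to those of other genes with equally bright probes. Among all genes tested, the median change was -0.02 at a mean level of 0 to 1, 0.13 at 1 to 2, 0.29 at 2 to 3, 0.48 at 3 to 4 and 0.60 above 4. The members' medians were 0.34, 0.29, 0.48 and 0.56 at levels of 1 to 2, 2 to 3, 3 to 4 and above 4. The 10317 genes below a level of 0, where no member lay, had a median of 0.22. At 1 to 2, 4 of 9 members were called higher beside 24.2% of the 1840 genes in that range, and at 2 to 3, 4 of 11 beside 37.2% of 1416. At a level of 3 to 4, 10 of 14 members were called higher, beside 67.4% of the 800 genes in that range. Above 4, 9 of 9 members were called higher, beside 93.1% of 553 genes. After quantile normalization the medians of all genes lay between -0.04 and -0.02 in these 4 ranges. Set against the median of all genes in the same step of 0.5 in level, 20 members lay above and 23 below, with a median difference of -0.03 (18 above and 25 below after quantile normalization). Psmd9 lay farthest above, by 0.64 under the first scaling and 0.62 after quantile normalization, followed by Psmb10 with 0.44 and 0.46. Psmd7 lay farthest below, by -0.60 and -0.64.

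**Figure D2:**
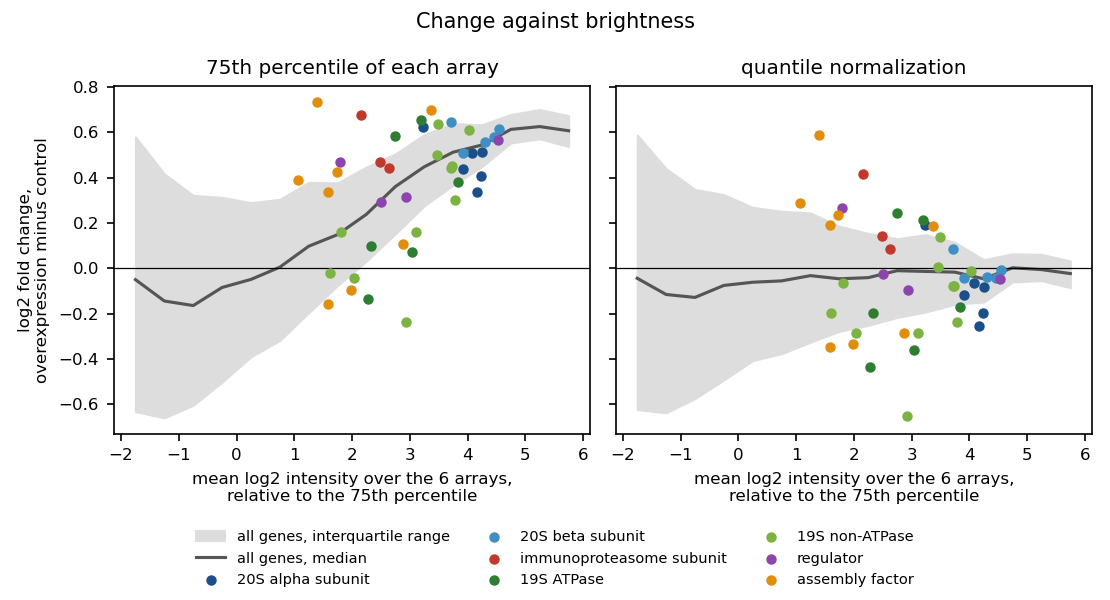
Log2 fold change (vertical axis) against mean level over the 6 arrays (horizontal axis) under both scalings. Coloured points are the 43 tested proteasome genes, the line is the median and the band the interquartile range of all genes tested in steps of 0.5 in level, and genes dimmer than a level of -2 are not drawn. Between levels of 0 and 5 the line climbs with brightness on the left, and on the right it stays near 0, and Psmd9, Psmb10 and Psmd7 lie outside the band in both panels.

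**Figure D3:**
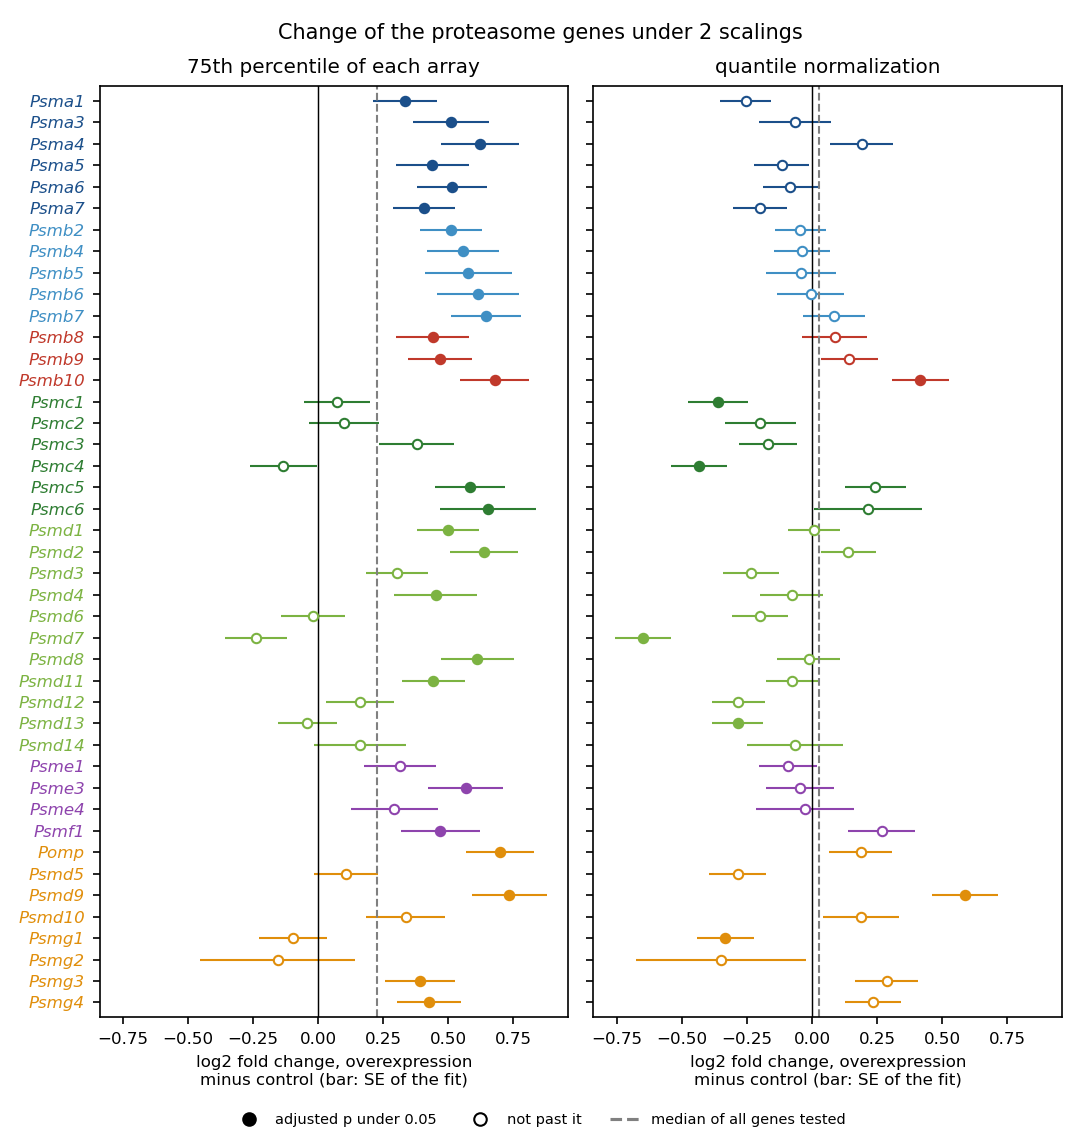
Log2 fold change with its standard error for the 43 tested proteasome genes under the 75th-percentile scaling (left) and quantile normalization (right). Filled points passed an adjusted p of 0.05 and the dashed line is the median of all genes tested, 0.23 on the left and 0.03 on the right. On the left 27 points are filled, all to the right of 0, and on the right 2 are filled above 0 and 5 below.

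The immunoproteasome subunits come first because inflammatory signals induce them. Psme1, a member of the interferon-inducible PA28 activator, is described further on with the regulators. All 3 of 3 were called higher under the 75th-percentile scaling, beside 37.2% of all genes at their levels of 2 to 3. After quantile normalization 1 of 3 was called higher, beside 23.1% of all genes. Psmb8, which replaces the chymotrypsin-like subunit, had levels of 2.55, 2.41 and 2.27 on control arrays and 2.89, 2.99 and 2.67 on overexpression arrays. Its groups did not overlap, and the change was 0.44 ± 0.14 (SE, n = 3 and 3), a 1.36-fold difference with an adjusted p of 0.028. The call for Psmb8 was lost without control replicate 2 (adjusted p = 0.075), control replicate 3 (0.097), overexpression replicate 1 (0.086) or overexpression replicate 2 (0.063), and it passed in 10 of 20 alternatives, with adjusted p from 0.0086 to 0.61.

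Psmb9, which replaces the caspase-like subunit, had levels of 2.19, 2.31 and 2.24 against 2.59, 2.81 and 2.75. The overexpression arrays were again all higher, by 0.47 ± 0.12 (SE, n = 3 and 3; 1.38-fold, adjusted p = 0.013). Its change was 0.14 after quantile normalization (adjusted p = 0.32), and the call passed in 16 of 20 alternatives with adjusted p from 0.0034 to 0.49.

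Psmb10, which replaces the trypsin-like subunit, showed the largest change of the trio. Its levels were 1.74, 1.84 and 1.87 on control arrays and 2.45, 2.68 and 2.36 on overexpression arrays. No overexpression array came near the control range, and the change was 0.68 ± 0.13 (SE, n = 3 and 3), a 1.60-fold difference with an adjusted p of 0.0040. After quantile normalization it was 0.42 (adjusted p = 0.018). It was called higher in all 20 alternatives that allowed a test, with changes of 0.38 to 0.83 and adjusted p from 0.00063 to 0.023. On slide 1 alone the change was 0.78 and on slide 2 alone 0.49.

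The sequence before the start of these 3 genes and of Psmd9, an assembly factor described further on, is shown because Psmb10 and Psmd9 were the only members called higher under both scalings and because Psmb8 and Psmb9 are the other subunits of the same form. The windows are the 250 bases before the annotated start, from RefSeq on GRCm38.p6, written 5′ to 3′ on the strand of the gene. Capitals mark a match to a motif searched on both strands: the antioxidant response element core TGACNNNGC, the interferon-stimulated response element core GAAANNGAA, the gamma-interferon activated site TTCNNNGAA, the estrogen-related receptor core AAGGTCA, or the nuclear respiratory factor 1 site GCGCANGCG.
Psmb8, chr17:34197945-34198194, plus strand: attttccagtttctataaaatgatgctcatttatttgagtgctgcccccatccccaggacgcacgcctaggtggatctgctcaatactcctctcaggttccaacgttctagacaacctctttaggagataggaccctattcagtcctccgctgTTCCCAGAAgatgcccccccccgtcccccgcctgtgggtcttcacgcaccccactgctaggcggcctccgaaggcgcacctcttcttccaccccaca
Psmb9, chr17:34187331-34187580, minus strand: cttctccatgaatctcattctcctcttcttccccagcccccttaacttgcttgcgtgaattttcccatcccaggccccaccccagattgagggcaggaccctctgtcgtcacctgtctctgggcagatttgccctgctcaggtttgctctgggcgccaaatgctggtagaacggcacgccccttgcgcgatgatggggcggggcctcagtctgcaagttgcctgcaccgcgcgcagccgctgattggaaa
Psmb10, chr8:105938393-105938642, minus strand: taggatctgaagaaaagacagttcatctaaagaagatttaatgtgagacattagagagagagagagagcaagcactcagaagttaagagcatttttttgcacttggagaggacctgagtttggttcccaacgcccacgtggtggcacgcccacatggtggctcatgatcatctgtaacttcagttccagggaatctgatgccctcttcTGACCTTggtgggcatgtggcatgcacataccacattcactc
Psmd9, chr5:123227940-123228189, plus strand: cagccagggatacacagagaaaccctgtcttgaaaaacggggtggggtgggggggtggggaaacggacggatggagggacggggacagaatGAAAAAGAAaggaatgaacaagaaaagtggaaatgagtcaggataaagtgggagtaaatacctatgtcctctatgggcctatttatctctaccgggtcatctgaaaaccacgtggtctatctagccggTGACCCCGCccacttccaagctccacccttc

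In these windows Psmb8 had a gamma-interferon activated site beginning 97 bases before the start, and Psmb10 had an estrogen-related receptor core, on the opposite strand, beginning 42 bases before it. Psmd9 had an antioxidant response element core 31 bases and an interferon-stimulated response element core 159 bases before the start, and Psmb9 had no match. Estrogen-related receptor α is a transcription factor that PGC-1α coactivates, and interferon drives the immunoproteasome genes, which is why these motifs were searched. Windows of 300 bases, 50 of them past the start, were found for 40 of the 48 members. The receptor core was in 3 of those 40 (7.5%) and in 5.38% of 27025 genes with a window. The antioxidant core was in 6 (15%) beside 14.0%, the interferon-stimulated core in 8 (20%) beside 9.76%, the gamma-interferon site in 3 (7.5%) beside 9.55%, and the nuclear respiratory factor 1 site in 7 (17.5%) beside 7.03%. A match describes letters in a window and is not a bound site.

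The immunoproteasome subunits were then compared with the subunits they replace, to ask whether they changed by a different amount. The log2 difference of each pair was taken on the same array, where a constant scaling factor cancels. A change that varies with brightness does not cancel, and the replaced subunits had the brighter probes. Psmb8 minus Psmb5 was -1.65, -1.82 and -1.80 on control arrays and -1.69, -2.10 and -1.89 on overexpression arrays. The groups overlapped, and the difference between them was -0.14 (exact permutation test, two-sided, p = 0.4). Psmb9 minus Psmb6 was -2.14, -1.89 and -1.94 against -2.10, -2.35 and -1.96, a difference of -0.15 (exact permutation p = 0.4). Psmb10 minus Psmb7 was -1.72, -1.60 and -1.61 against -1.60 and -1.49, with no value for overexpression replicate 3, a difference of 0.10 (exact permutation p = 0.2). With the outlier spot of Psmb7 kept, overexpression replicate 3 stood at -1.74 and the difference for this pair was 0.04 (exact permutation p = 0.8). The Benjamini-Hochberg value over the 3 pairs was 0.4 for each, and the smallest p that 3 arrays against 3 allow is 0.1. Quantile normalization, which moves dim and bright probes by different amounts, turned the first and second differences to 0.13 and 0.15 and gave 0.37 for the third, with exact permutation p of 0.3, 0.6 and 0.1 (adjusted 0.45, 0.6 and 0.3). None of the 3 differences passed the test, which does not show that the members of a pair changed equally. These differences compare changes, since the brightness of 2 probes does not give the relative amounts of their transcripts. Set against the median of all genes in their step of 0.5 in level, Psmb8, Psmb9 and Psmb10 lay above by 0.08, 0.23 and 0.44. Psmb5, Psmb6 and Psmb7 lay above by 0.03, 0.0006 and 0.13. Whether the members of a pair differed by this measure was not tested.

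**Figure D4:**
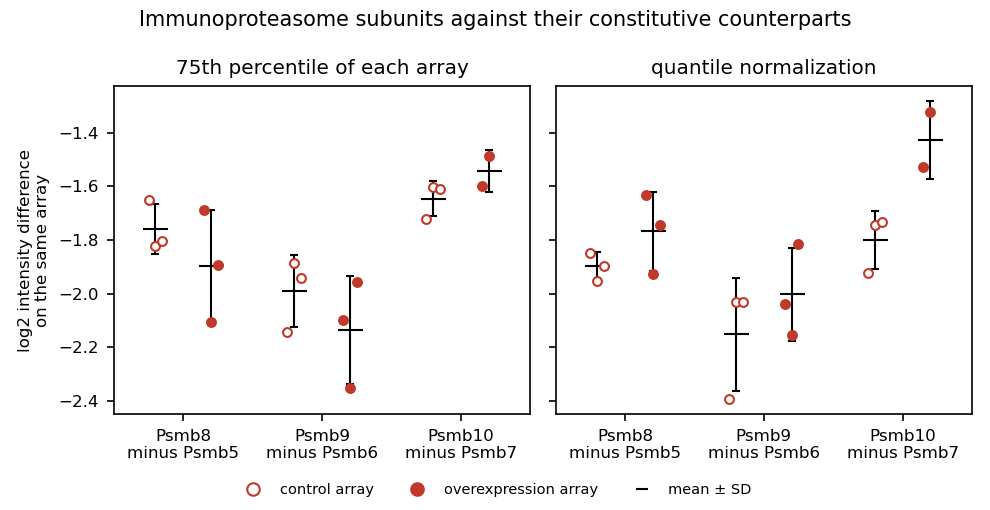
Log2 intensity of each immunoproteasome subunit minus that of its constitutive counterpart on the same array (vertical axis), under the 75th-percentile scaling (left) and quantile normalization (right). Open points are control and filled points overexpression arrays, with the mean ± SD beside them. Control and overexpression points overlap for the first and second pair in both panels, and for Psmb10 minus Psmb7 the 2 overexpression points lie above the 3 control points.

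All 5 constitutive beta subunits that could be tested were called higher under the 75th-percentile scaling and none after quantile normalization. Of all genes, 67.4% were called higher at levels of 3 to 4 and 93.1% above 4, the levels at which these 5 lay. Psmb5, which carries the chymotrypsin-like site, had levels of 4.21, 4.23 and 4.08 against 4.58, 5.10 and 4.57. Psmb6, which carries the caspase-like site, had 4.33, 4.20 and 4.19 against 4.68, 5.17 and 4.71. Psmb7, which carries the trypsin-like site, had 3.46, 3.44 and 3.48 against 4.04 and 4.17, with its spot on overexpression replicate 3 left out as an outlier. All overexpression arrays exceeded all control arrays for these 3 genes, and overexpression replicate 2 was the highest each time. The changes were 0.58 ± 0.17, 0.61 ± 0.16 and 0.65 ± 0.14 (SE, adjusted p = 0.019, 0.012 and 0.0068), whereas quantile normalization gave -0.04, -0.01 and 0.08. The call for Psmb5 was lost without control replicate 3 (change 0.53, adjusted p = 0.066). The structural subunits Psmb2 and Psmb4 changed by 0.51 and 0.56.

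The alpha ring behaved in the same way. All 6 tested alpha subunits were called higher, beside 93.1% of all genes above a level of 4 and 67.4% at 3 to 4. Their changes ran from 0.34 (Psma1) to 0.62 (Psma4) with a median of 0.47. The median of all genes was 0.60 above a level of 4 and 0.48 at 3 to 4. After quantile normalization 0 of 6 were called in either direction, with changes from -0.26 to 0.19. Psma1, the member closest to the threshold, had an adjusted p of 0.046 and passed in 6 of 20 alternatives. The calls for Psma3, Psma5 and Psma7 passed in 13, 11 and 13 of 20. Psma3 and Psma7 lost theirs without control replicate 1 or 2 or overexpression replicate 1, and Psma5 without any control array or overexpression replicate 2 (adjusted p from 0.053 to 0.092). The change of Psma4 rested on 2 control arrays of its brightest probe. Without control replicate 1 or 3 that probe dropped out, and a dimmer probe stood for the gene. The change was then 0.31 or 0.36 (adjusted p = 0.13 and 0.096). For Psma4, 4 probes were tested, with changes of 0.62, 0.32, 0.28 and 0.23, and only the brightest was called.

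The probes of the 19S cap were dimmer than those of the core, with median levels of 2.90 for its ATPases and 3.46 for its other subunits against 4.13 and 4.30 for the alpha and beta rings, and fewer genes of any kind were called higher at such levels than above 4. Whether cap and core differed in their changes was not tested. Of the 6 ATPases, which form the unfolding ring, 2 were called higher. All 6 lay at levels of 2 to 4, and of all genes 37.2% were called higher at 2 to 3 and 67.4% at 3 to 4. The 2 were Psmc5, by 0.58 ± 0.13 (adjusted p = 0.0095), and Psmc6, by 0.65 ± 0.19 (adjusted p = 0.018). Psmc6 had levels of 2.52, 2.88 and 3.19 on control arrays and 3.63, 3.35 and 3.57 on overexpression arrays, and its call was lost without control replicate 1 (change 0.48, adjusted p = 0.054) or overexpression replicate 1 (0.60, adjusted p = 0.065). Psmc4 had 2.39, 2.36 and 2.30 against 2.13, 2.40 and 2.11, overlapping groups with a change of -0.13 ± 0.13 (adjusted p = 0.40). Psmc1, Psmc2 and Psmc3 had changes of 0.07, 0.10 and 0.38, with adjusted p of 0.64, 0.55 and 0.052. After quantile normalization Psmc4 (-0.43, adjusted p = 0.014) and Psmc1 (-0.36, adjusted p = 0.037) were lower, and none was higher. Of all genes, 22.3% were then called lower and 23.1% higher.

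Of the 11 non-ATPase subunits of the cap, 5 were called higher: Psmd1, Psmd2, Psmd4, Psmd8 and Psmd11, with changes from 0.44 to 0.64. Levels of the 11 ran from 1.61 to 4.02. Of all genes, 24.2% were called higher at 1 to 2, 37.2% at 2 to 3, 67.4% at 3 to 4 and 93.1% above 4. After quantile normalization none of the 5 was called, with changes from -0.08 to 0.14. Of the 11, 0 were then called higher and 2 lower, beside 23.1% and 22.3% of all genes. The call for Psmd4 passed in 9 of 20 alternatives and was lost without any control array or without overexpression replicate 1 or 2, the last of which took its change from 0.45 to 0.29 (adjusted p = 0.065). Psmd11 lost its call without control replicate 1 or overexpression replicate 1. Psmd2 and Psmd1 are the large scaffold subunits that dock ubiquitin receptors and shuttle factors, and Psmd4 is itself a ubiquitin receptor. Of the 43 members tested, 28 had negative changes after quantile normalization. Under the first scaling 37 of the 43 had positive changes, but the median change of all genes was then also positive, at 0.23. The share of all genes with a positive change was not counted. Psmd7, the inactive partner of the deubiquitinase Psmd14, had the most negative change. Its levels were 3.08, 3.07 and 3.00 on control arrays and 2.88, 2.86 and 2.68 on overexpression arrays. Every overexpression array was below every control array, by 0.24 ± 0.12 (SE, n = 3 and 3), which did not pass the test (adjusted p = 0.12; exact permutation p = 0.1, the smallest possible). After quantile normalization Psmd7 was called lower, with a change of -0.65 ± 0.11 (adjusted p = 0.0029). Psmd14 had a change of 0.16 ± 0.18 (adjusted p = 0.46) with its brightest probe and 0.48 with the other (adjusted p = 0.025 over tested probes). Without overexpression replicate 2 the brightest probe dropped out, and the other probe then stood for the gene at 0.51 (adjusted p = 0.026). Psmd13, a lid subunit, had 2.11, 2.02 and 2.04 against 1.97, 2.08 and 1.98, overlapping groups that differed by -0.04 ± 0.11 (adjusted p = 0.77), and by -0.29 after quantile normalization (adjusted p = 0.046).

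The regulators bind the ends of the core in place of the cap, or act on it directly. Psme3, the nuclear PA28γ activator, had levels of 4.34, 4.21 and 4.19 on control arrays and 4.81, 5.03 and 4.61 on overexpression arrays, without overlap, a change of 0.57 ± 0.14 (adjusted p = 0.011) that was -0.05 after quantile normalization. Psme1, a subunit of the interferon-inducible PA28 activator, had 2.84, 2.78 and 2.70 against 3.08, 3.28 and 2.90. Its groups did not overlap, but the change of 0.32 ± 0.14 did not pass (adjusted p = 0.082), except with the slide as a block (0.048) and in 3 other alternatives of 20. Psme4, the large PA200 activator, had 2.14, 2.61 and 2.33 against 2.84, 2.43 and 2.69, and its groups overlapped (0.29 ± 0.17, adjusted p = 0.16).

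Psmf1, the PI31 regulator, gave opposite answers with its 2 probes. The brighter had levels of 1.73, 1.43 and 1.52 against 1.92, 2.27 and 1.91, a change of 0.47 ± 0.15 (adjusted p = 0.029 over genes). The dimmer had -2.04, -2.32 and -2.40 against -2.99, -3.21 and -3.08, a change of -0.84 ± 0.14 (adjusted p = 0.0025 over the 24558 tested probes). Neither probe's groups overlapped, and the opposite directions remained after quantile normalization (0.27 and -0.90). The brighter probe's call was lost without control replicate 2 (adjusted p = 0.10), control replicate 3 (0.083), overexpression replicate 1 (0.052) or overexpression replicate 2 (0.064). Which transcripts each probe reads was not determined, and the gene counts among the 27 through its brighter probe alone.

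The 8 assembly factors guide subunits into place and leave the finished particle. Of them 4 were called higher and 0 lower, beside 36.9% and 19.6% of all genes. Their median level was 1.66, and 24.2% of all genes at levels of 1 to 2 were called higher. After quantile normalization 1 was called higher and 1 lower, beside 23.1% and 22.3% of all genes. Psmd9, a chaperone of the ATPase ring, had levels of 1.17, 0.99 and 0.94 on control arrays and 1.82, 1.93 and 1.55 on overexpression arrays. The groups were well apart and the change of 0.74 ± 0.14 (SE, n = 3 and 3; 1.66-fold, adjusted p = 0.0041) was the largest of all members tested. It was 0.59 after quantile normalization (adjusted p = 0.0086), 0.80 on slide 1 alone and 0.61 on slide 2 alone, and all 20 alternatives with a test called it higher, with adjusted p from 0.00071 to 0.019.

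Pomp, which is needed to complete assembly of the core and promotes immunoproteasome formation, had levels of 3.07, 3.09 and 3.09 against 3.75 and 3.82, with overexpression replicate 3 left out as an outlier. The change was 0.70 ± 0.13 (n = 3 and 2; adjusted p = 0.0046), and 0.19 after quantile normalization (adjusted p = 0.25). Its second probe gave 0.44. Without overexpression replicate 1 or 2 the bright probe dropped out, and the second probe then stood for the gene with changes of 0.47 (adjusted p = 0.052) and 0.43 (adjusted p = 0.039). Psmg3 and Psmg4, a pair that helps build the alpha ring, changed by 0.39 and 0.43 (adjusted p = 0.037 and 0.019), and by 0.29 and 0.23 after quantile normalization (adjusted p = 0.089 and 0.11). The call for Psmg3 passed in 10 of 20 alternatives and was lost without any of the arrays but overexpression replicate 3, and that for Psmg4 was lost without control replicate 2 or overexpression replicate 1.

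The other alpha ring chaperone pair, Psmg1 and Psmg2, did not move that way. Psmg1 had 2.09, 1.91 and 2.09 against 1.88, 2.10 and 1.82, an overlapping difference of -0.10 ± 0.13 (adjusted p = 0.55) that was -0.33 after quantile normalization (adjusted p = 0.042). Psmg2 had 1.24, 1.46 and 2.26 against 1.65 and 1.34. Control replicate 3 stood above the other 4 values, and the change of -0.16 ± 0.30 (adjusted p = 0.68) became 0.15 without it. Psmd5 and Psmd10, chaperones that work beside Psmd9, had changes of 0.11 and 0.34 (adjusted p = 0.47 and 0.097).

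Several probes were tested for 19 of the genes. In 15 of them all tested probes moved in the same direction, and in 4 (Psmc4, Psmd13, Psmd6 and Psmf1) they did not. Of the 67 tested probes 35 were called higher and 1 lower, beside 31.4% and 21.3% of all tested probes. For Psmc4 the brighter probe changed by -0.13 and the dimmer by 0.57, the latter past the threshold, and the same split was seen after quantile normalization (-0.43 and 0.59). In 6 genes (Pomp, Psma3, Psma6, Psmb2, Psmb4 and Psmd2) every tested probe was called higher.

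**Figure D5:**
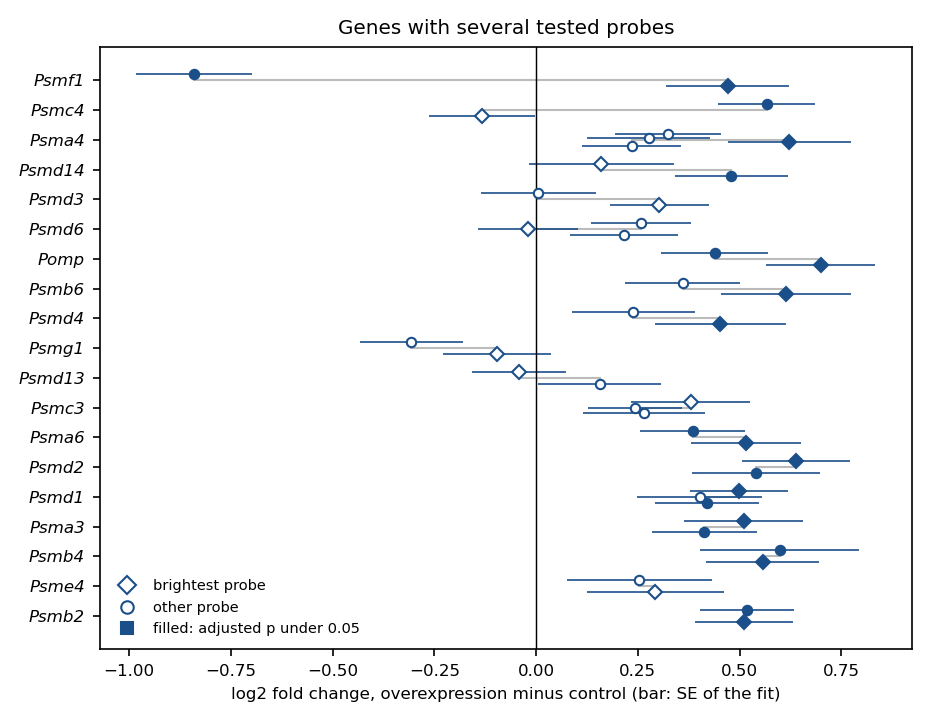
Log2 fold change with its standard error for each tested probe of the 19 proteasome genes with several tested probes, under the 75th-percentile scaling. Diamonds are the brightest probe, which stands for the gene, and filled symbols passed an adjusted p of 0.05 over all tested probes. Psmf1 has filled symbols on both sides of 0, at -0.84 and 0.47, and the probes of Psmc4 lie at -0.13 and 0.57.

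The remaining 5 members were not tested. Psma2, Psmb1 and Psmb3 are core subunits with bright probes, each left with too few values after spots marked as outliers were removed. With these spots kept, an alternative chosen after seeing the data, Psmb1 had levels of 3.69, 3.92 and 3.90 against 4.23, 4.57 and 4.40, and its change was 0.56 ± 0.14 (adjusted p = 0.010). Psmb3 changed by 0.59 ± 0.16 (adjusted p = 0.016) and Psma2 by 0.22 ± 0.12 (adjusted p = 0.15). In that setting 29 of 46 members were called higher, beside 37% of all genes. Psma8, the alpha subunit of the testis, was well above background on 1 of 6 arrays with 1 probe and on 0 with the other. Psmb11, the beta subunit of the thymic cortex, was well above background on 0 of 6 arrays.

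Genes that work with the proteasome were read from a list of partners: shuttle factors, deubiquitinases, ubiquitin genes, transcriptional regulators of the subunit genes and the segregase Vcp. Of 27 tested, 13 were called higher and 4 lower, beside 36.9% and 19.6% of all genes, with a median of 0.36 beside 0.23. After quantile normalization 3 were higher and 6 lower, beside 23.1% and 22.3%. Sem1, the small lid subunit that the naming rule does not reach, changed by 0.65 and Uchl5, a deubiquitinase of the cap, by 0.50 (adjusted p = 0.0040 and 0.0094), and after quantile normalization by 0.04 and 0.06 (adjusted p = 0.78 and 0.72).

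Regulators of subunit transcription are on the same list. Nfe2l2 (NRF2), which drives antioxidant genes and some proteasome genes, had levels of 0.68 and 1.06 on the 2 control arrays with a value and -1.17, -1.86 and -0.55 on overexpression arrays. The groups were far apart, and the change was -2.07 ± 0.35 (adjusted p = 0.0032), with -2.11 after quantile normalization. Ddi2, the protease that activates NRF1 when proteasomes are impaired, had 1.48, 1.30 and 1.38 against 0.55, 0.87 and 0.72, a change of -0.67 ± 0.13 (adjusted p = 0.0043; -0.78 after quantile normalization). Nfe2l1, which encodes NRF1, changed by -0.05 ± 0.15 (adjusted p = 0.78). The 2 others called lower were Ube3c and Ubqln2, a ubiquitin ligase of the cap and a shuttle factor, with -0.84 and -0.45.

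Among 8 tested genes of antigen processing, which take up the peptides or are induced with the immunoproteasome, 2 were called higher and 2 lower, beside 36.9% and 19.6% of all genes, and the median was -0.20 beside 0.23. After quantile normalization 0 were called higher and 2 lower. Nlrc5, the transactivator of MHC class I genes, had 1.03, 1.13 and 1.04 against 0.14, -0.37 and 0.35, a change of -1.03 ± 0.19 (adjusted p = 0.0031) and -1.09 after quantile normalization. Tap1, which adjoins Psmb9 and encodes a peptide transporter, changed by 0.10 ± 0.14 (adjusted p = 0.57). Tapbp and H2-K1 changed by 0.48 and 0.66 (adjusted p = 0.020 and 0.013), and by 0.09 and 0.04 after quantile normalization (adjusted p = 0.57 and 0.83).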

How the data were processed

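Groups, replicates and slides follow the sample labels. Agilent Feature Extraction had measured spot intensity in the green channel, and these intensity values were deposited by the authors after background subtraction within each array. The authors also deposited log2 values, covering some probes only and normalized in GeneSpring by a procedure not given in the sources used here, whose columns share nearly the same median. The labels name the dye as Cy3 and the protocol as Cy5.

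Here each array's 75th percentile was subtracted from its log2 intensity, outlier-flagged spots (149 to 1590 an array) were removed, and replicate spots were averaged. Probes were matched to RefSeq genes (GRCm38.p6) through accessions, 33767 of 56605. Testing a probe required values on 2 or more arrays per group and clear signal (well above background) on all 3 arrays of either group, and a gene was read from its brightest such probe. The two-sided limma test (lmFit, eBayes; limma 3.58.1, R 4.3.3) was adjusted by Benjamini-Hochberg across 17062 genes at a threshold of 0.05, and the steps were tested on simulated data. Pairs were compared with exact permutation tests. Values on every array are given for the immunoproteasome subunits, their counterparts, the regulators, Pomp, and the 5 largest and 5 smallest changes; other genes were named after their values were seen. The members and lists were chosen with earlier results of these data known. The values of a gene on the antigen processing list are not reported here. Alternatives were quantile normalization, the median as the scale, normexp (offset 50), the authors' log2 values, other filters, probe averaging, slide or replicate as a block, a variance trend, and each array left out. Plots used Python 3.11.15 and matplotlib 3.10.9.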

Additional observations from a re-analysis of the deposited data

How the results depend on the processing

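The 27 genes called higher and 0 called lower became 2 and 5 after quantile normalization (beside 23.1% and 22.3% of all genes), 2 and 6 after normexp background correction with quantile normalization (18.6% and 21.7%), 2 and 4 with the authors' log2 values (21.4% and 21%), and 17 and 1 with the median of each array in place of its 75th percentile (28.8% and 22.4%). The median relative to all genes, 0.21, became -0.072, -0.061 and -0.074 under the first 3 of these, 0.15 after normexp with the 75th percentile, 0.098 without a filter on dim probes, 0.27 on slide 1 alone and 0.094 on slide 2 alone. Under the first 3 Psmb8 minus Psmb5 turned from -0.14 to 0.13, 0.034 and 0.11, and Psmb9 minus Psmb6 from -0.15 to 0.15, 0.12 and 0.13. Over the settings that left out 1 array, the count of genes called higher ran from 15 of 40 to 27 of 41, beside 27.1% to 38.3% of all genes. No gene was called lower in the other 16 alternatives with a test. The 10 of these outside the settings that left out 1 array called 22 to 32 genes higher, beside 24.6% to 47% of all genes. The count was 22 of 46 without a filter on dim probes (24.6% of all genes) and 22 of 43 on slide 1 alone (34.3%).

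Genes whose change turned negative after quantile normalization were Psma1 (-0.26), Psma3 (-0.066), Psma5 (-0.12), Psma6 (-0.083), Psma7 (-0.20), Psmb2 (-0.044), Psmb4 (-0.039), Psmb5 (-0.043), Psmb6 (-0.0051), Psmc1 (-0.36), Psmc2 (-0.20), Psmc3 (-0.17), Psmd11 (-0.076), Psmd12 (-0.28), Psmd14 (-0.064), Psmd3 (-0.24), Psmd4 (-0.078), Psmd5 (-0.28), Psmd8 (-0.012), Psme1 (-0.093), Psme3 (-0.046) and Psme4 (-0.026). After normexp with quantile normalization they were Psma1 (-0.26), Psma3 (-0.11), Psma5 (-0.19), Psma6 (-0.086), Psma7 (-0.24), Psmb2 (-0.022), Psmb4 (-0.10), Psmb6 (-0.028), Psmc1 (-0.42), Psmc2 (-0.18), Psmc3 (-0.16), Psmd1 (-0.0078), Psmd11 (-0.046), Psmd12 (-0.28), Psmd14 (-0.054), Psmd3 (-0.27), Psmd4 (-0.026), Psmd5 (-0.24), Psmd8 (-0.0069), Psme1 (-0.14) and Psme3 (-0.038), and with the authors' log2 values Psma1 (-0.25), Psma3 (-0.065), Psma5 (-0.11), Psma6 (-0.073), Psma7 (-0.19), Psmb2 (-0.040), Psmb4 (-0.031), Psmb5 (-0.023), Psmc1 (-0.35), Psmc2 (-0.19), Psmc3 (-0.17), Psmd11 (-0.072), Psmd12 (-0.28), Psmd14 (-0.039), Psmd3 (-0.24), Psmd4 (-0.076), Psmd5 (-0.28), Psme1 (-0.090), Psme3 (-0.041) and Psme4 (-0.026). With the median as the scale these were Psmc1 (-0.037), Psmc2 (-0.011) and Psmd5 (-0.0021), and after normexp with the 75th percentile Psmc1 (-0.020). Averaging the probes of a gene turned Psmc4 (0.22), Psmd13 (0.043), Psmd6 (0.15) and Psmf1 (-0.18), and centring each array on the median of the genes tested turned Psmc4 (0.013), Psmd13 (0.11), Psmd6 (0.13) and Psmg1 (0.051). On slide 2 alone the reversals were Psmc1 (-0.047), Psmc2 (-0.040) and Psmd12 (-0.0097). Leaving out overexpression replicate 1 turned Psmd13 (0.23) and Psmd6 (0.034), leaving out control replicate 2 turned Psmd6 (0.014), and leaving out control replicate 3 turned Psmg2 (0.15). Over all left-out arrays the changes ranged from -0.077 to 0.23 for Psmd13, from -0.076 to 0.034 for Psmd6 and from -0.36 to 0.15 for Psmg2. The 0.23 of Psmd13 without overexpression replicate 1 came from its other probe, which stood for the gene in that fit. The cause of the other reversals was not tested.

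The replicate block gave 27 genes called higher, 0 lower and a relative median of 0.21, with Psmg2 at 0.15, as did the slide as a block and slide 1 alone for that gene. Deviations of same-numbered arrays correlated at -0.16, 0.071 and 0.60. These values cannot show whether the numbers pair the samples, since replicate 3 of both groups also shared a slide. Keeping outlier spots, centring on the genes tested and using each slide alone were chosen after seeing the data. Psmb7 could not be paired with Psmb10 where a filter or a left-out array removed it. The precision of all values is limited by 3 arrays a group, and dim probes by the background.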
